A study of Mus musculus with 16 samples.

Results

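The genes described here are 35 enzymes and transporters of glycolysis, lactate handling and the pentose phosphate pathway, out of 24485 gene IDs measured. They were chosen by function, as a list of gene names, and every member was found in every library. RNA was sequenced from 2 immortalized mouse embryonic fibroblast lines in which doxycycline switches on a Cre recombinase that cuts floxed Sdhc, the gene of a membrane subunit of succinate dehydrogenase. The exp line is R26M2rtTA/+;TetOcre;Sdhcfl/fl, with both copies of Sdhc floxed, and the ctl line is R26M2rtTA/+;TetOcre;Sdhcfl/wt, with a wild-type copy next to the floxed copy. Both lines therefore carry the doxycycline-dependent transactivator and the Cre transgene, both were grown in low-glucose DMEM with 10% serum, and both received doxycycline at 1 µg/mL. Each line gave 8 libraries, 3 of them from day 16 and 1 each from days 0, 5, 9, 12 and 20. Days are counted from doxycycline, so day 0 is its start, and the early comparison below includes day 0. With 1 line per genotype, genotype and line cannot be told apart, and p-values measure the spread among libraries of these lines.

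Glycolysis splits glucose into pyruvate in the cytosol and yields ATP and NADH. Lactate dehydrogenase turns pyruvate into lactate and regenerates NAD, while pyruvate dehydrogenase, which its kinases switch off, sends pyruvate into the citric acid cycle that succinate dehydrogenase belongs to. The pentose phosphate pathway branches off at glucose 6-phosphate and makes NADPH and ribose. In mammalian cells many glycolytic genes are induced by the hypoxia-inducible factors, whose hydroxylases are inhibited by succinate, and cultured fibroblasts run glycolysis at a high rate even with oxygen present.

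Levels are FPKM, fragments per kilobase of transcript scaled to library depth, so they compare genes per length. Values per library are given in the order of days 0, 5, 9 and 12, day 16 replicates 1, 2 and 3, and day 20. Sdhc stood at 87.8, 54.4, 43.8, 44.0, 36.9, 32.8, 26.5 and 42.5 FPKM in exp, against 90.5, 58.6, 47.6, 52.6, 50.5, 50.1, 47.5 and 54.7 in ctl. It was lower in exp than in ctl on every day, by little at day 0 and most at day 16, where the lines did not overlap (limma log2 difference -0.62 ± 0.12 SE, adjusted p = 0.0434). That call was lost in 7 of 17 alternatives, namely without exp replicate 2 (0.134) or 3 (0.0692), without any 1 ctl replicate (0.107 to 0.15), with median-of-ratios rescaling (0.0524) and with no filter on low values (0.0614). The labels do not say which exons are floxed, and a value for the whole gene includes reads from the rest of the transcript. In bulk RNA, fewer cells that express a gene and less of its RNA per cell cannot be told apart.

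The libraries held 18121440 to 42486121 reads in genes, and the lowest count of any member in any library was 26 reads. At day 16, replicates 2 and 3 stood apart from replicate 1 in both lines. Between replicates 2 and 3 the log2 levels correlated at 0.995 in exp and 0.997 in ctl, whereas replicate 1 correlated with them at 0.951 and 0.953 in exp and at 0.979 and 0.981 in ctl. Fibroblast markers summed to 4602 to 5332 FPKM in exp and 4118 to 4409 FPKM in ctl, and none of the 10 was under 1 FPKM in all libraries. Individual markers differed in both directions (limma adjusted p under 0.05). Over days 0, 5 and 9, Col1a2 and Col3a1 were higher in exp (2 of 9, against 7.39% of all genes). Pdgfra and Pdgfrb were lower there (2 of 9, against 5.93%). At day 16 Col1a2, Col3a1 and Thy1 were higher (3 of 10, against 3.1%), and Pdgfra and S100a4 lower (2 of 10, against 3.01%). Of 8 mesothelial or epithelial markers only Epcam stayed under 1 FPKM everywhere, and their sum ranged from 70.7 to 839 FPKM in exp and from 98.9 to 129 FPKM in ctl. The endothelial (4 of 4), skeletal muscle (4 of 4) and leukocyte (3 of 4) markers were under 1 FPKM in all libraries.

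**Figure D1:**
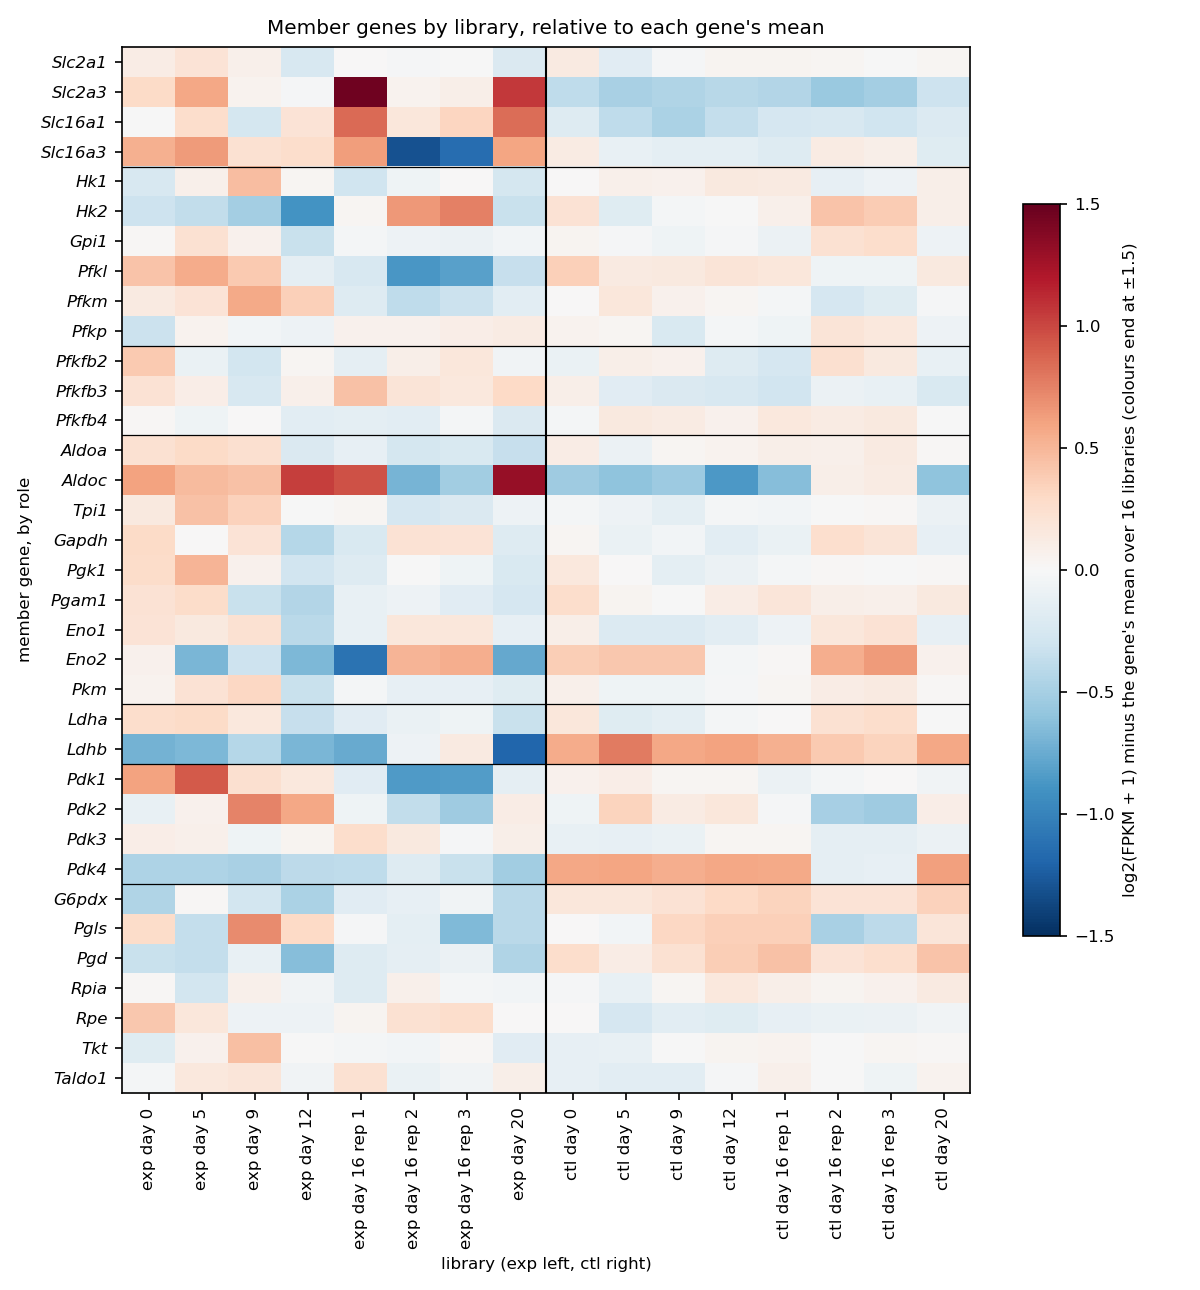
Each cell is the log2(FPKM + 1) of a member gene (vertical, by role) in a library (horizontal, 8 exp libraries left and 8 ctl libraries right) minus that gene's mean over the 16 libraries; red is above and blue below the mean. Pdk1 and Pfkl are red at exp days 0 and 5 and blue in exp day 16 replicates 2 and 3, and Ldhb, Pdk4, G6pdx and Pgd are mostly blue in exp and red in ctl.

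The enzymes of lower glycolysis were the most abundant members. Averaged over the 16 libraries, Pkm (pyruvate kinase, which makes pyruvate) reached 509 FPKM, Tpi1 (triose phosphate isomerase) 335, Ldha (the main lactate dehydrogenase subunit) 265, Aldoa (aldolase A) 227, Pgam1 (phosphoglycerate mutase) 166 and Eno1 (enolase 1) 149. At the other end, Pfkfb3 averaged 2.37, Aldoc (aldolase C) 2.05, Slc2a3 1.42 and Pdk4 1.06 FPKM. The ratio of the highest to the lowest library was between 1.12 and 1.37 for the 6 abundant genes in ctl and between 1.56 and 1.64 in exp. Gapdh averaged 60.3 FPKM, near Pgk1 (63.2) and far below Tpi1, its neighbours in the pathway. Gapdh, Pgk1, Eno1, Ldha, Aldoa, Tpi1, Pgam1 and Pkm have processed pseudogenes, and the way the authors assigned shared reads is not given in the sources used here, so their absolute levels are uncertain.

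In most families a single isoform made up most of the RNA in both lines. The muscle-type subunit Ldha made up 97.9% to 99.3% of the lactate dehydrogenase FPKM in exp and 96.3% to 98.1% in ctl. Aldoa made up 96.9% to 99.7% of aldolase in exp and 99.2% to 99.8% in ctl. Slc2a1 (GLUT1) made up 86.4% to 96.4% of the pair of glucose transporters in exp and 97.7% to 98.5% in ctl. Phosphofructokinase was a mixture, in which the liver-type subunit Pfkl held 40.2% to 59.9% in exp and 51.9% to 58.0% in ctl.

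Promoter sequences of 4 members that the results turn on are shown because they include 2 of the canonical hypoxia-responsive genes, Pgk1 and Ldha, beside the genes with the clearest line difference (Ldhb) and the steepest fall over time (Pdk1). They are the 250 bases before the annotated start, from RefSeq on GRCm38.p6: chrX:106186850-106187099 (plus strand) for Pgk1, chr7:46845554-46845803 (plus) for Ldha, chr6:142507958-142508207 (minus) for Ldhb and chr2:71872974-71873223 (plus) for Pdk1. Capitals mark ACGTG, the core of the hypoxia response element, on either strand (read as CACGT from the other strand).
Pgk1: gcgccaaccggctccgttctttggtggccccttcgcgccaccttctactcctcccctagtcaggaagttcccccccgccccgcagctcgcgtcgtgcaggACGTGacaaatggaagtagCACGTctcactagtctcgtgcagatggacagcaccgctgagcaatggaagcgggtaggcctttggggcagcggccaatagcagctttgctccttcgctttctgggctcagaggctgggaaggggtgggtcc
Ldha: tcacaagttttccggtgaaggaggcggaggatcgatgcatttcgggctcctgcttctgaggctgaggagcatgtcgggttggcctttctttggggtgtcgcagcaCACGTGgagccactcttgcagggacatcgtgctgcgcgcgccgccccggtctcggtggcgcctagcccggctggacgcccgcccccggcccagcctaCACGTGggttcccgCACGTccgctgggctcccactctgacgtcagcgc
Ldhb: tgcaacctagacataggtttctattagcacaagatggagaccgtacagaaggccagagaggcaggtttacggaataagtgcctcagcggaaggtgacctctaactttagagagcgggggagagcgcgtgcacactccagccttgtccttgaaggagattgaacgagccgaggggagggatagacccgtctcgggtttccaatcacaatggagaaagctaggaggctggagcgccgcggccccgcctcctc
Pdk1: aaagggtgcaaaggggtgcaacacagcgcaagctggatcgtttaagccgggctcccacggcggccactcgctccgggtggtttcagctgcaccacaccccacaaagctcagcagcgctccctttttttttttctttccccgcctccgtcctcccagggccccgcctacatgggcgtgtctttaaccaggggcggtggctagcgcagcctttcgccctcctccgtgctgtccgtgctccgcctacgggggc
Pgk1 had matches at -150 and -131 bases from the start. Ldha had 5, at -145, -144, -48, -47 and -34, where each CACGTG palindrome counts on both strands, and CACGTG is also the E-box bound by MYC. The Ldhb and Pdk1 windows held no ACGTG. A window was found for 34 members (not for Slc2a3), and 15 of them (44.1%) held ACGTG within 250 bases before to 50 after the start, against 5315 of 27025 genes (19.7%). CACGTG stood in 5 of the 34 (14.7%) and in 1957 of the 27025 (7.24%). A match of letters is a description of the window and says nothing about binding in these cells.

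Before day 12 the summed RNA of the central glycolytic enzymes was higher in exp than in ctl, and from day 12 the sum was lower. Summed over 9 abundant glycolytic genes (Gpi1, Aldoa, Tpi1, Gapdh, Pgk1, Pgam1, Eno1, Pkm and Ldha), the level was 2021, 2193, 2085, 1489, 1705, 1668, 1670 and 1561 FPKM in exp, against 1921, 1698, 1693, 1779, 1824, 1943, 1975 and 1791 in ctl. In exp the lowest of days 0 to 9 lay above the highest of the later libraries, and ctl showed no such break. Not every gene followed the sum. None of the 9 was called over days 0, 5 and 9 (limma adjusted p = 0.114 to 0.861). Gpi1, Pgam1 and Pkm were below ctl at day 0, and Pgam1 also at day 9 (130 against 164 FPKM, -0.33 log2). Gpi1 and Tpi1 were above ctl in day 16 replicate 1 and at day 20. Tpi1 was also slightly above ctl at day 12, and Gapdh in day 16 replicate 3. Of the 35 members, 21, 24 and 25 were higher in exp than in ctl at days 0, 5 and 9, and 12, 12, 10, 11 and 13 at day 12, in the 3 numbered pairs of day 16 and at day 20. Over all genes tested, 58.1%, 48.8% and 52.2% were higher in exp at days 0, 5 and 9 and 46.5% to 55.4% later, so the members' count at day 0 was close to the background. The median difference of the members was 0.09, 0.23 and 0.21 log2 at days 0, 5 and 9, -0.19 at day 12, between -0.10 and -0.08 in the 3 day 16 pairs, and -0.17 at day 20. Over all genes tested the median was 0.08 at day 0, near that of the members, and lay between -0.02 and 0.04 in the other libraries.

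**Figure D2:**
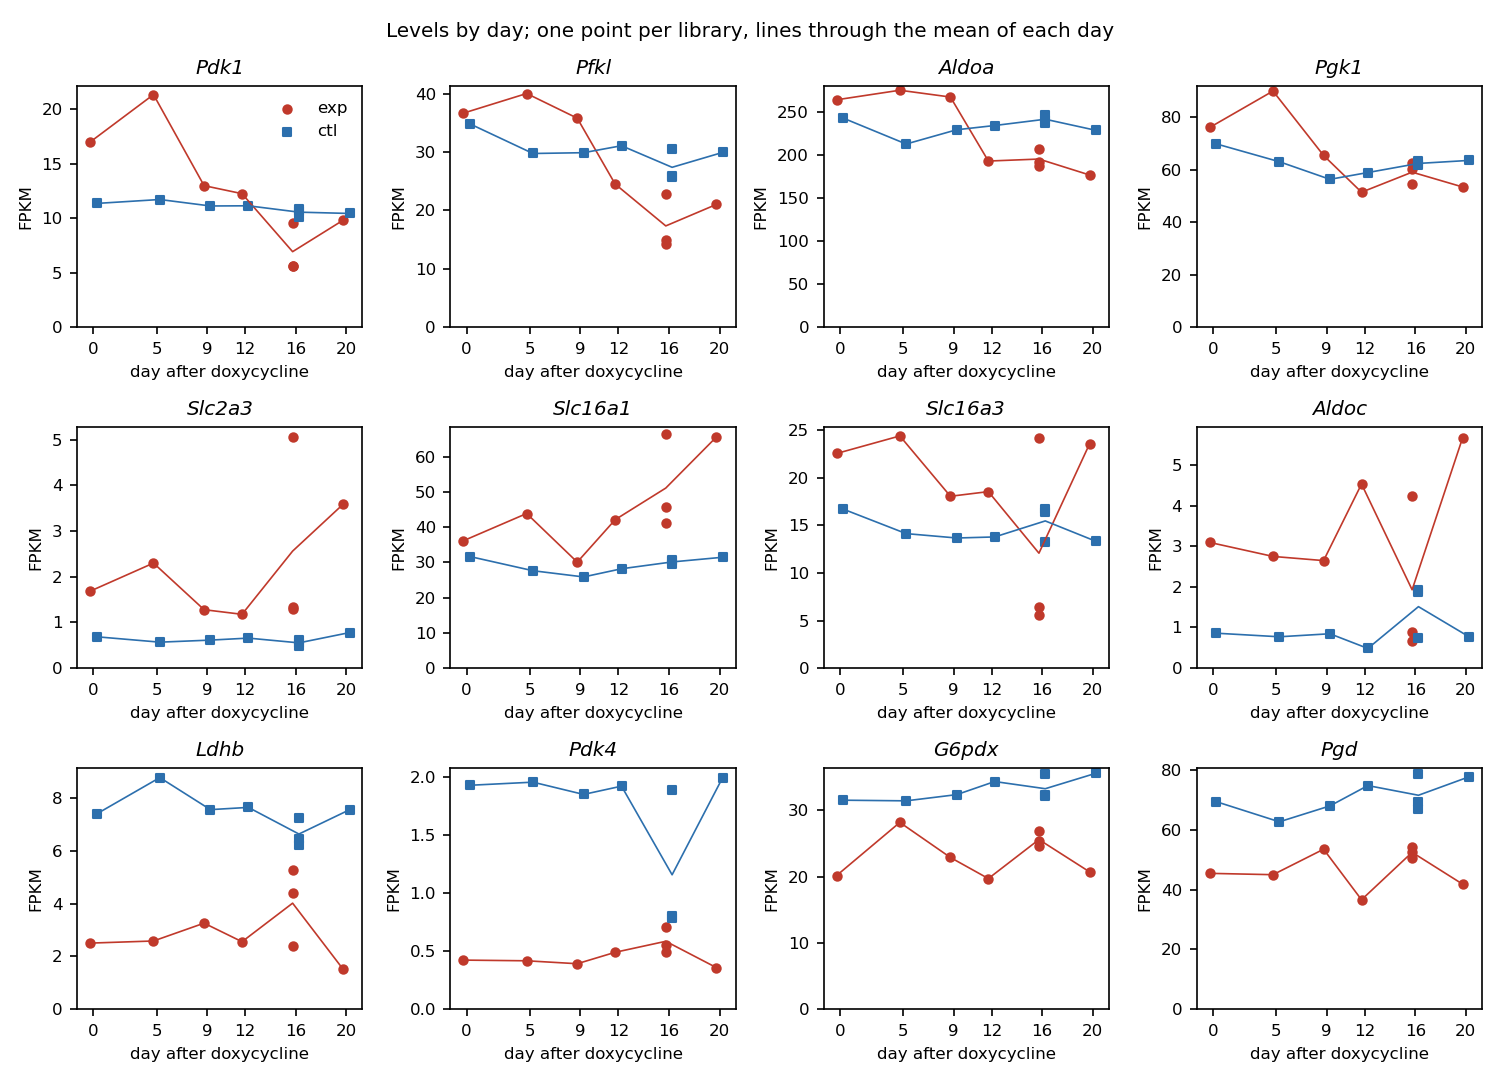
FPKM (vertical, linear from 0) by day after doxycycline (horizontal) for 12 members, with 1 point per library and a line through the mean of each day; exp is red and ctl blue. Pdk1, Pfkl and Aldoa lie above ctl at day 5 and below it at day 16, Slc2a3 lies above ctl on every day, and Ldhb, G6pdx and Pgd lie below ctl on every day.

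At days 0, 5 and 9, fitted with day as a block (1 library per line and day), 8 of 35 members differed between the lines. The higher ones were Aldoc, the neuronal glucose transporter gene Slc2a3 (GLUT3), the lactate exporter gene Slc16a3 (MCT4) and Pdk1, a kinase that switches off pyruvate dehydrogenase. The lower ones were the heart-type lactate dehydrogenase subunit Ldhb, Pdk4, the neuronal enolase Eno2 and Pgd, the NADPH-producing phosphogluconate dehydrogenase. The 4 higher members compare with 7.39% of 12583 genes called higher, and the 4 lower with 5.93% called lower (limma on log2(FPKM + 1), Benjamini-Hochberg adjusted p under 0.05). The members' median difference was 0.15 log2 against 0.04 over all genes, and 24 of 35 were positive. Aldoc and Slc2a3 passed the filter only through exp, and Pdk4 only through ctl, so these 3 had to differ to be tested. Ldhb was called in all 11 alternatives run for this comparison, and Aldoc in the 10 in which it passed the filter (not with a mean of at least 5 FPKM).

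At day 16, the only day with replicates, 3 of 34 members were lower in exp and none was higher (limma, adjusted p under 0.05; Pdk4 fell under the filter of a mean of 1 FPKM). They were Aldoa, G6pdx (glucose 6-phosphate dehydrogenase, which opens the pentose phosphate pathway) and Pgd. Over all genes 3.01% of 12533 were called lower and 3.1% higher, and 2822 had an unadjusted p under 0.05. The members' median was -0.10 log2, against -0.01 over all genes. The lines did not overlap for 10 members that were lower (Pfkl, Pfkfb4, Aldoa, Pgam1, Pkm, Ldha, Ldhb, Pdk1, G6pdx and Pgd; 16.5% of all genes) and for 4 that were higher (Slc2a3, Slc16a1, Pfkfb3 and Rpe; 15.5% of all genes). Each of the 3 calls was lost when exp replicate 2 (adjusted p = 0.128 to 0.175), exp replicate 3 (0.0931 to 0.174), ctl replicate 2 (0.0918 to 0.158) or ctl replicate 3 (0.131 to 0.206) was left out. The day 16 fit was unpaired. With the replicate numbers as a block, G6pdx (limma adjusted p = 0.0541) and Pgd (0.0504) were no longer called.

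Because day 16 replicates 2 and 3 stood apart, the late difference was also fitted over days 12, 16 (replicate 1) and 20 with day as a block, an alternative chosen after seeing the data. In these 6 libraries 5 of 35 members were higher in exp (16.2% of 12523 genes) and 11 were lower (14.7%). The members' median was -0.16 log2 against 0.00 over all genes. The higher ones were Slc2a3, Slc16a1, Slc16a3, Pfkfb3 and Aldoc. The lower ones were Hk1, Pfkl, Aldoa, Pgk1, Pgam1, Eno2, Ldha, Ldhb, Pdk4, G6pdx and Pgd. Aldoc and Slc2a3 passed the filter only through exp, and Pdk4 only through ctl, so they had to differ to be tested. With day 16 replicates 2 and 3 alone, 5 of 33 were higher (17.7% of 12474 genes) and 14 lower (16.9%). Ldhb, G6pdx, Pgd, Pfkl and Aldoa were lower in each of these libraries than in the ctl library of the same day and number. Aldoc and Slc16a3 were higher at days 12 and 20 and in day 16 replicate 1, and lower in day 16 replicates 2 and 3.

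**Figure D3:**
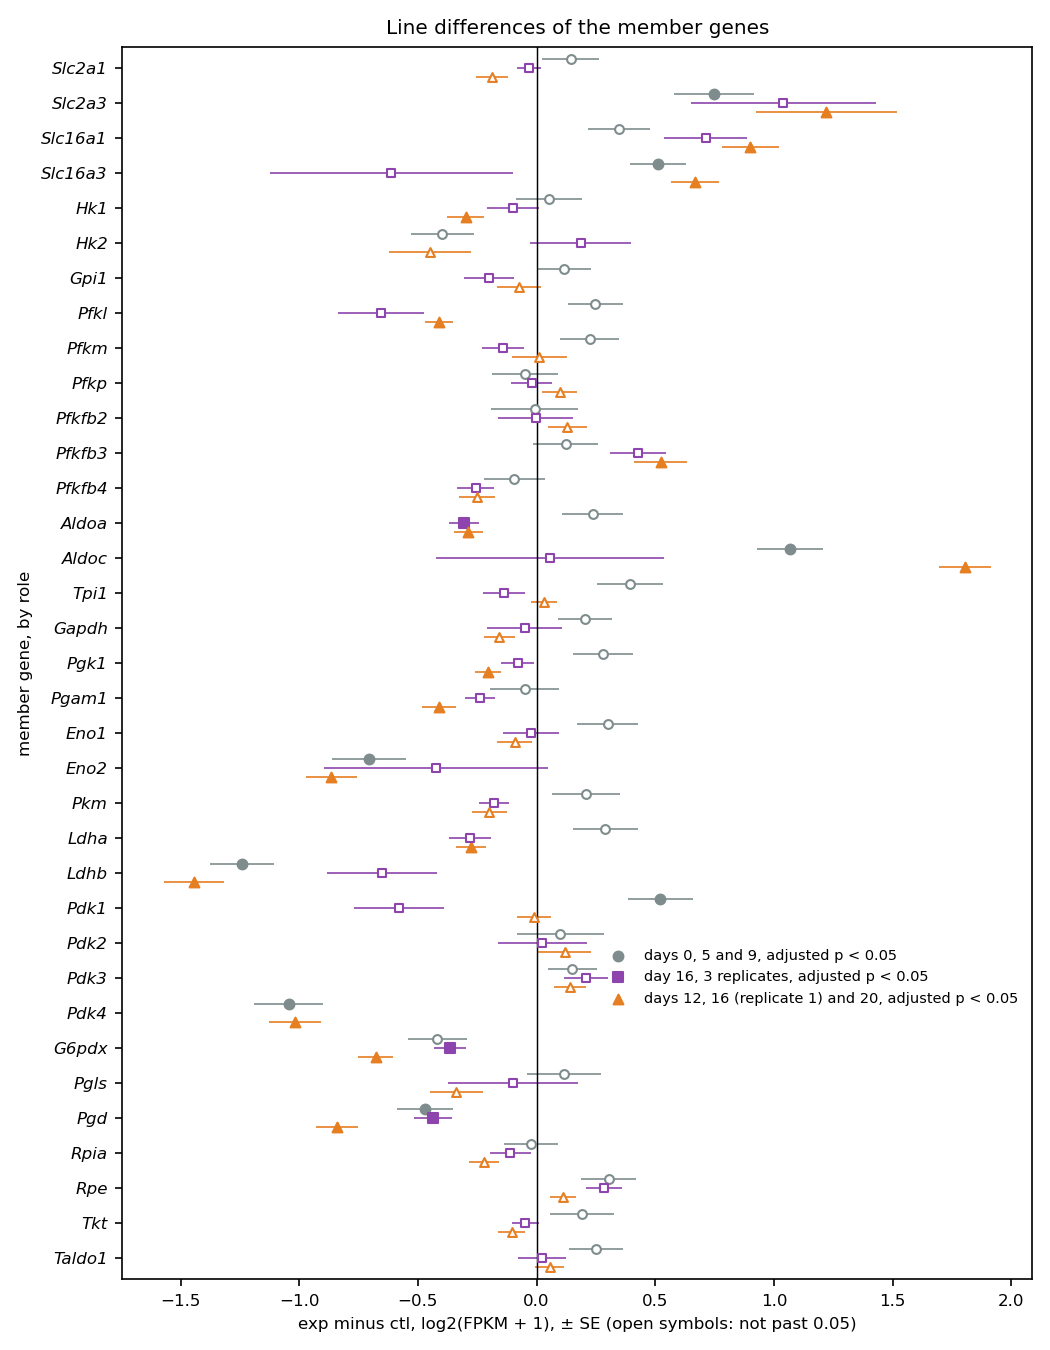
Difference between the lines (horizontal, exp minus ctl, log2(FPKM + 1), bars are SE) for each member (vertical, by role) over days 0, 5 and 9 (circles), the 3 day 16 replicates (squares) and days 12, 16 replicate 1 and 20 (triangles); filled symbols have an adjusted p under 0.05. Aldoc (1.07 early) and Slc2a3 (0.75 early) lie to the right, Ldhb (-1.24 early) to the left, and Pdk1 is right of 0 early (0.52) and left of it at day 16 (-0.58).

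Over the 20 days, 4 of 35 members fell in the exp line and none rose. They were Pdk1, Pfkl, Aldoa and Pgk1 (phosphoglycerate kinase, an ATP-making step). Over all 12559 genes, 3.59% were called falling and 1.36% rising in exp. The members' median slope was -0.20 log2 per 20 days against -0.09 over all genes, 24 of 35 were negative, and all 9 genes of the triose steps were negative with a median of -0.36. In ctl no member and no gene was called (203 genes at an unadjusted p under 0.05), and the members' median slope was 0.02. The test of the slope difference itself called no member, among 0.0239% of genes called lower and 0.183% called higher, so the fall in exp is not shown to differ from ctl. The members' median slope difference was -0.24 against -0.06 over all genes, and 25 of 35 were negative.

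The split of calls in exp depended on scaling: 171 genes rose and 451 fell as deposited, 263 and 157 after median-of-ratios rescaling, and 263 and 250 after quantile normalization. Median-of-ratios rescaling moved the median slope of all genes from -0.09 to 0.02, and Pdk1, Pfkl and Aldoa were still called under both scalings. Leaving out day 0, leaving out day 16, or averaging the day 16 replicates ended the calls of all 4 members. Without day 0 the adjusted p-values were 0.065 to 0.158, without day 16 they were 0.0771 to 0.174, and with averaged replicates 0.0527 to 0.117. Without day 16 replicates 2 and 3 alone all 4 were called, at slopes of -1.01 for Pdk1, -0.97 for Pfkl, -0.71 for Pgk1 and -0.65 for Aldoa.

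**Figure D4:**
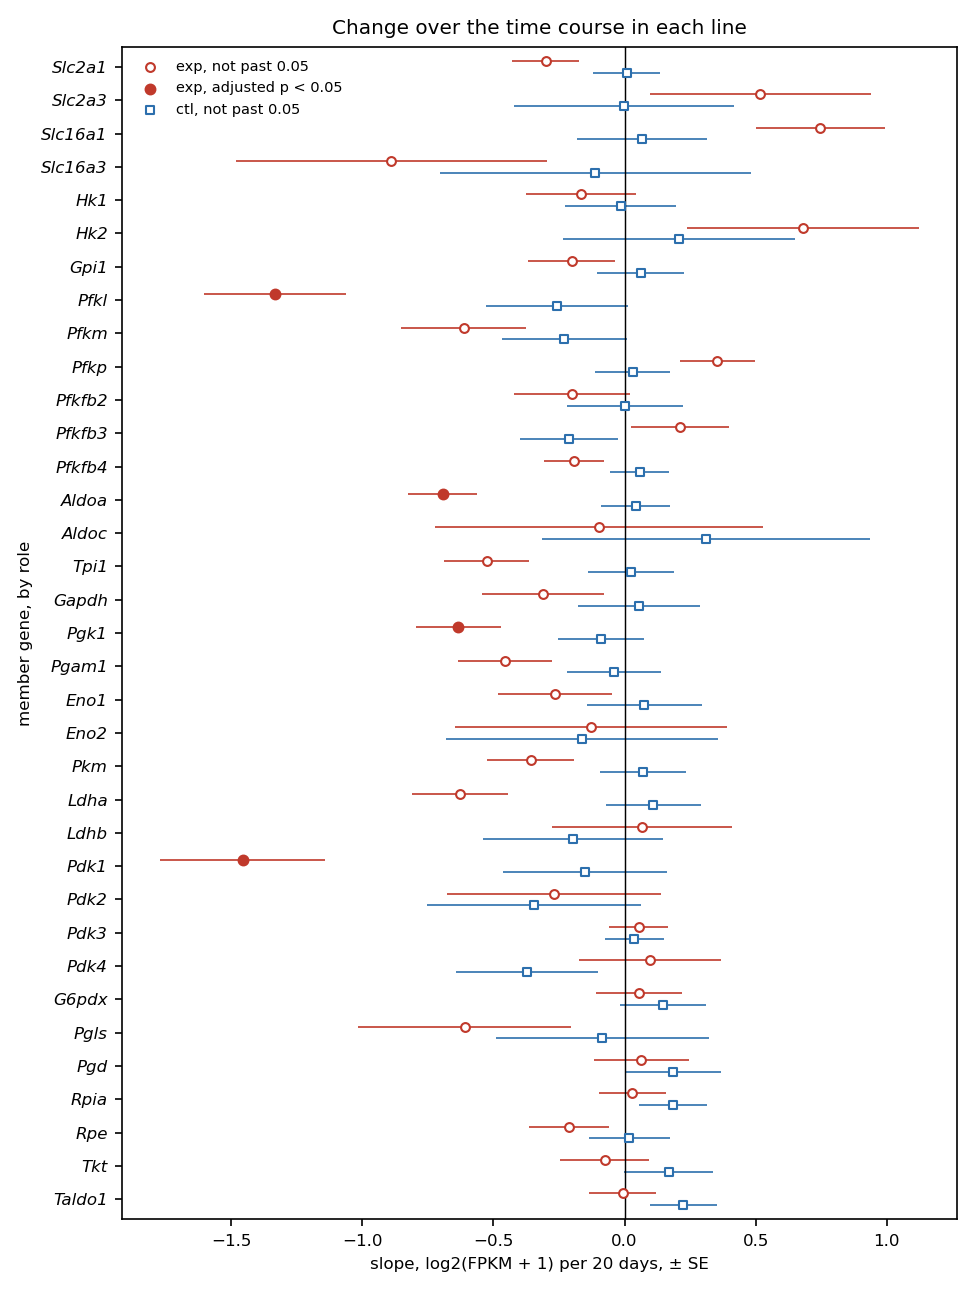
Slope over the time course (horizontal, log2(FPKM + 1) per 20 days, bars are SE) for each member (vertical, by role) in exp (red circles) and ctl (blue squares); filled symbols have an adjusted p under 0.05. Pdk1 (-1.46), Pfkl (-1.33), Aldoa (-0.69) and Pgk1 (-0.63) are the filled exp points, and the ctl slopes cluster around 0.

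Slc2a1, the basal glucose transporter GLUT1, was the more abundant glucose transporter transcript of the pair. It ranged from 27.0 to 36.9 FPKM in exp and from 28.4 to 35.3 in ctl and was not called early, at day 16 or over time. Slc2a3, a high-affinity glucose transporter (chromosome 6, 122677827 to 122751658, minus strand, mm9), stood at 1.69, 2.30, 1.28, 1.18, 5.05, 1.29, 1.34 and 3.59 FPKM in exp, against 0.686, 0.568, 0.613, 0.657, 0.622, 0.493, 0.542 and 0.777 in ctl. Every exp library lay above every ctl library, which held for no other member and for 5.5% of all genes. Exp day 16 replicate 1 and day 20 were the highest. Early it was higher in exp by 0.75 ± 0.17 log2 (limma adjusted p = 0.0266; 0.59 and 0.218 without day 5). Every ctl library was under 1 FPKM, so it passed the filter only through exp. At day 16 it was 1.04 ± 0.39 (adjusted p = 0.187), with a mean of 2.56 ± 2.16 FPKM (SD) over the 3 exp replicates and 0.553 ± 0.0651 over the 3 ctl replicates.

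Slc16a1 (MCT1), which moves lactate and pyruvate across the plasma membrane in either direction, stood at 36.2, 43.9, 30.1, 42.1, 66.4, 41.2, 45.8 and 65.6 FPKM in exp, against 31.7, 27.7, 25.9, 28.2, 30.4, 30.6, 29.4 and 31.5 in ctl. It was higher in exp on every day, most in day 16 replicate 1 and at day 20. At day 16 the lines did not overlap, yet the difference of 0.71 ± 0.17 log2 did not pass (limma adjusted p = 0.0732), and over days 12, 16 (replicate 1) and 20 it was 0.90 ± 0.12 (adjusted p = 0.0075). Slc16a3 (MCT4), the exporter of highly glycolytic cells, stood at 22.6, 24.4, 18.1, 18.6, 24.2, 5.61, 6.40 and 23.6 FPKM in exp, against 16.7, 14.1, 13.7, 13.8, 13.3, 16.8, 16.4 and 13.3 in ctl. It was above ctl in 6 exp libraries and less than 7 FPKM in day 16 replicates 2 and 3. Early it was higher in exp by 0.51 ± 0.12 (adjusted p = 0.0282), and the call was lost without day 5 (0.182), without day 9 (0.0771) and with no filter on low values (0.0648). Its share of the Slc16a1 and Slc16a3 total was 12.0% and 12.3% in exp day 16 replicates 2 and 3, 26.4% to 38.4% in the other exp libraries, and 29.8% to 35.8% in ctl.

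Slc2a3, Slc16a1, Slc16a3 and Aldoc varied widely among the exp libraries, and so did mesothelial markers. Upk3b, a marker of mesothelium, stood at 84.8, 103, 50.3, 127, 455, 22.9, 28.0 and 433 FPKM in exp, and between 0.115 and 0.611 in ctl. It was highest in exp day 16 replicate 1 and day 20 and lowest in replicates 2 and 3. Of the 7 mesothelial or epithelial markers that passed the filter, 5 were higher in exp over days 0, 5 and 9 (7.39% of all genes). Msln and Cdh1 had negative differences that did not pass. Upk3b, Upk1b, Krt8 and Krt18 were under 1 FPKM in every ctl library. They passed the filter only through exp, so they had to differ to be tested. Msln (mesothelin) ranged from 15.3 to 131 FPKM in exp and from 84.8 to 121 in ctl. Slc2a3 and Slc16a1 were also highest in exp day 16 replicate 1, but Slc2a3 was lowest at day 12 and Slc16a1 at day 9, and Slc16a3 was highest at day 5. The part of this cell character in the 4 genes' levels was not tested.

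**Figure D5:**
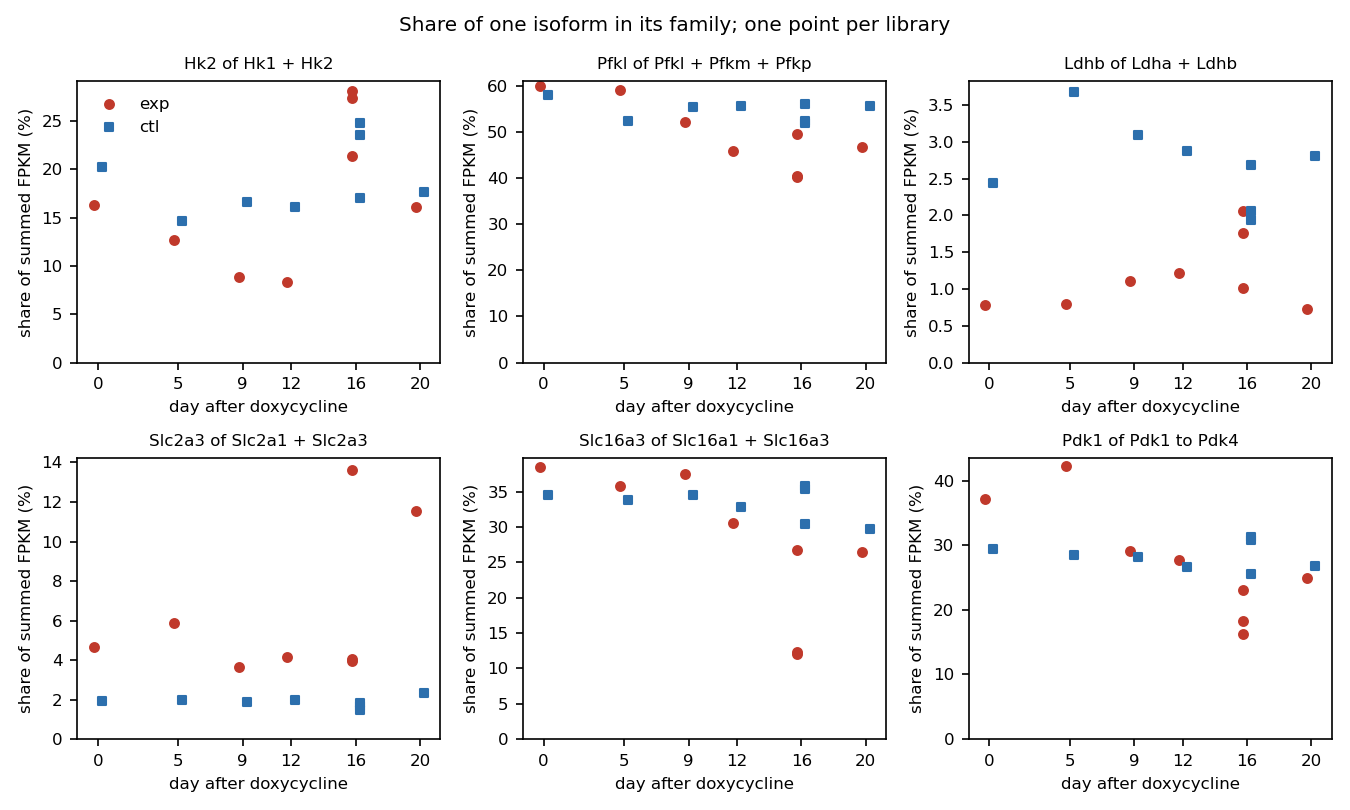
Share of an isoform in the summed FPKM of its family (vertical, percent, linear from 0) by day after doxycycline (horizontal), with 1 point per library, exp red and ctl blue. Slc2a3 takes 3.64% to 13.6% of its pair in exp and 1.48% to 2.32% in ctl, and Slc16a3 drops to 12.0% and 12.3% in exp day 16 replicates 2 and 3.

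The hexokinases, which trap glucose as glucose 6-phosphate, were not called early, at day 16 or over time. Hk1, the housekeeping form, ranged from 17.7 to 30.7 FPKM in exp and from 20.2 to 24.4 in ctl, and was lower in exp over days 12, 16 (replicate 1) and 20 by 0.30 ± 0.08 log2 (limma adjusted p = 0.0446). The inducible form Hk2 stood at 3.61, 3.40, 2.99, 2.05, 4.83, 7.92, 8.63 and 3.52 FPKM in exp, against 5.61, 4.0, 4.59, 4.67, 4.99, 6.65, 6.43 and 5.03 in ctl. It was below ctl in every exp library but day 16 replicates 2 and 3, which were the highest of all, and its share of hexokinase ranged from 8.38% to 28.1% in exp and from 14.7% to 24.8% in ctl. Gpi1, glucose 6-phosphate isomerase, ranged from 30.6 to 45.5 FPKM in exp and from 36.4 to 46.7 in ctl; it was called only with day 16 replicates 2 and 3 alone, where it was lower in exp by 0.33 ± 0.04 log2 (adjusted p = 0.00113).

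Phosphofructokinase, the committed step, changed in its liver-type subunit. Pfkl (chromosome 10, 77449692 to 77472828, minus strand, mm9) stood at 36.7, 40.0, 35.8, 24.5, 22.7, 14.3, 15.0 and 21.0 FPKM in exp, against 34.8, 29.7, 29.9, 31.1, 30.5, 25.8, 25.8 and 29.9 in ctl. It was above ctl at days 0, 5 and 9 and below it in all 5 later exp libraries, with day 16 replicates 2 and 3 lowest. It fell by 1.33 ± 0.27 log2 per 20 days in exp (limma adjusted p = 0.0202), with a ctl slope of -0.26 ± 0.27. The slope difference was -1.07 ± 0.36 (adjusted p = 0.306). At day 16 its mean was 17.3 ± 4.68 FPKM (SD) over the 3 exp replicates and 27.4 ± 2.74 over the 3 ctl replicates, a difference of -0.66 ± 0.18 (adjusted p = 0.1), and with the replicate numbers as a block it passed (adjusted p = 0.0373). The muscle-type Pfkm ranged from 12.0 to 24.3 FPKM in exp and from 13.3 to 18.1 in ctl, and its exp slope of -0.61 ± 0.24 did not pass (adjusted p = 0.135). The platelet-type Pfkp stood between 6.80 and 9.67 FPKM in exp and between 7.32 and 10.2 in ctl, with a positive exp slope of 0.35 ± 0.14 (adjusted p = 0.153).

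The enzymes that make and degrade fructose 2,6-bisphosphate, the activator of phosphofructokinase, were low and moved little. Pfkfb3, the isoform with the highest ratio of kinase to phosphatase activity, stood at 2.86, 2.57, 1.82, 2.52, 3.51, 2.81, 2.72 and 3.09 FPKM in exp, against 2.53, 1.97, 1.87, 1.83, 1.73, 2.14, 2.07 and 1.84 in ctl. The lines did not overlap at day 16, but the difference of 0.43 ± 0.12 log2 did not pass (limma adjusted p = 0.1); over days 12, 16 (replicate 1) and 20 it was 0.52 ± 0.11 (adjusted p = 0.0271). Pfkfb4 ranged from 3.27 to 4.03 FPKM in exp and from 3.87 to 4.57 in ctl, and Pfkfb2 from 3.07 to 5.51 in exp and from 3.16 to 4.83 in ctl.

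In the triose steps Aldoa and Pgk1 turned from above ctl early to below it later. Aldoa, which splits fructose bisphosphate into trioses (chromosome 7, 133938748 to 133944265, minus strand, mm9), stood at 264, 275, 267, 193, 206, 187, 191 and 176 FPKM in exp, against 243, 212, 229, 234, 240, 237, 246 and 228 in ctl. Days 0, 5 and 9 were above every ctl library and all 5 later exp libraries were below every ctl library. Aldoa fell by 0.69 ± 0.13 log2 per 20 days in exp (limma adjusted p = 0.0143), against a ctl slope of 0.04 ± 0.13, and the slope difference was -0.74 ± 0.19 (adjusted p = 0.179). At day 16 it averaged 195 ± 9.87 FPKM (SD) over the 3 exp replicates and 241 ± 4.67 over the 3 ctl replicates, lower by 0.31 ± 0.06 log2 (adjusted p = 0.0475). That call lay close to the threshold and was lost in 10 of 17 alternatives, among them median-of-ratios rescaling (0.0665) and each fit without 1 replicate other than exp replicate 1 (0.0834 to 0.206).

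Aldoc stood at 3.09, 2.75, 2.65, 4.53, 4.24, 0.665, 0.883 and 5.68 FPKM in exp, against 0.859, 0.771, 0.845, 0.484, 0.729, 1.88, 1.93 and 0.771 in ctl. It was above ctl in 6 exp libraries, while in day 16 replicates 2 and 3 the order of the lines was turned round, with exp lower and ctl higher than on the other days. Early Aldoc was higher in exp by 1.07 ± 0.14 log2 (limma adjusted p = 0.00221), and the difference over days 12, 16 (replicate 1) and 20 was 1.80 ± 0.11 (adjusted p = 0.000932). With day 16 replicates 2 and 3 alone it was -0.71, and over the 3 day 16 replicates it was 0.06 ± 0.48 (adjusted p = 0.96). In the fits over days 0, 5 and 9 and over days 12, 16 (replicate 1) and 20, every ctl library was under 1 FPKM. Aldoc therefore passed the filter there only through exp.

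Pgk1 (chromosome X, 103382439 to 103399038, plus strand, mm9), whose printed promoter holds ACGTG on each strand, stood at 76.1, 89.9, 65.4, 51.4, 54.5, 62.5, 60.1 and 53.4 FPKM in exp, against 69.8, 63.0, 56.3, 58.9, 61.6, 63.2, 62.3 and 63.5 in ctl. Exp was above ctl at days 0, 5 and 9 and below it at days 12 and 20 and in each day 16 pair, narrowly in replicates 2 and 3. It fell by 0.63 ± 0.16 log2 per 20 days in exp (limma adjusted p = 0.0404), with a slope difference of -0.54 ± 0.20 (adjusted p = 0.333). The call was lost in 14 of 23 alternatives, among them median-of-ratios rescaling (-0.51, adjusted p = 0.107), quantile normalization (0.0963) and each fit without 1 day 16 replicate (0.0513 to 0.0777). Leaving out day 5, 9 or 20 also ended it (0.0656, 0.0535 and 0.0788).

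The other triose genes had the same sign of slope without passing. Tpi1 ranged from 279 to 453 FPKM in exp and from 300 to 337 in ctl, with an exp slope of -0.52 ± 0.16 (limma adjusted p = 0.0712). Pgam1 ranged from 122 to 199 FPKM in exp and from 164 to 198 in ctl, and its slope was -0.46 ± 0.18. Pkm had a slope of -0.36 ± 0.17, Gapdh (glyceraldehyde phosphate dehydrogenase, which makes NADH) -0.31 ± 0.23 and Eno1 -0.27 ± 0.22, none past the threshold. Pgam1 was lower in exp over days 12, 16 (replicate 1) and 20 by 0.41 ± 0.07 (adjusted p = 0.0148), and its day 16 difference was -0.24 ± 0.06 (adjusted p = 0.0847).

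Eno2, the neuronal enolase, stood at 14.1, 7.95, 10.6, 8.06, 5.67, 19.5, 20.1 and 7.49 FPKM in exp, against 17.7, 18.01, 18.1, 13.1, 13.6, 20.1, 21.4 and 14.0 in ctl. Exp was below the ctl library of the same day and number in all 8 pairs, and only slightly so in day 16 replicates 2 and 3. For days 0, 5 and 9 the difference was -0.70 ± 0.16 log2 (limma adjusted p = 0.0281), and the call was lost without day 5 (-0.51, 0.15), without day 9 (0.151) and with no filter (0.0769). Neural markers, of which 2 of 4 were under 1 FPKM in all libraries (Gfap and Sox10), summed to 20.9 to 25.5 FPKM in exp and 29.2 to 38.8 in ctl. Of the 2 that were expressed, Tubb3 ranged from 9.02 to 12.6 FPKM in exp and from 18.7 to 29.2 in ctl, whereas Map2 ranged from 10.5 to 15.2 in exp and from 8.65 to 11.7 in ctl. Their part in the Eno2 difference was not tested.

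The lactate dehydrogenase subunits differed in kind. Ldha (chromosome 7, 54096845 to 54110997, plus strand, mm9), whose subunit favours lactate formation, stood at 315, 321, 291, 206, 232, 245, 250 and 207 FPKM in exp, against 295, 230, 237, 258, 262, 307, 315 and 262 in ctl. It was above ctl at days 0, 5 and 9 and below it in all later pairs. Its exp slope of -0.63 ± 0.18 log2 per 20 days did not pass (limma adjusted p = 0.0591), and it passed with the replicate numbers as a block (-0.74, adjusted p = 0.0232). The slope difference was -0.74 ± 0.24 (adjusted p = 0.294).

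Ldhb (chromosome 6, 142438769 to 142456477, minus strand, mm9), whose subunit favours lactate use, stood at 2.50, 2.58, 3.26, 2.55, 2.39, 4.39, 5.26 and 1.51 FPKM in exp, against 7.40, 8.78, 7.56, 7.65, 7.23, 6.46, 6.22 and 7.56 in ctl. Every exp library lay below every ctl library, which held for 4 members (Ldhb, Pdk4, G6pdx and Pgd; 4.65% of all genes). The gap was narrowest in day 16 replicates 2 and 3. The early difference was -1.24 ± 0.14 log2 (limma adjusted p = 0.000932) and was present at day 0, at -1.26. Over days 12, 16 (replicate 1) and 20 it was -1.44 ± 0.13 (adjusted p = 0.00232), and at day 16 it was -0.65 ± 0.23 (adjusted p = 0.17). Ldhb made up 0.722% to 2.07% of lactate dehydrogenase in exp and 1.93% to 3.67% in ctl.

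Among the pyruvate dehydrogenase kinases, Pdk1 changed over time and Pdk4 differed between the lines from the start. Pdk1, the isoform induced by hypoxia (chromosome 2, 71711281 to 71741915, plus strand, mm9), stood at 17.0, 21.3, 13.0, 12.2, 9.54, 5.59, 5.64 and 9.81 FPKM in exp, against 11.3, 11.7, 11.1, 11.1, 10.1, 10.6, 10.9 and 10.4 in ctl. It was above every ctl library at days 0, 5, 9 and 12 and below every one at day 16 and day 20, while ctl stayed between 10.1 and 11.7 FPKM. The early difference was 0.52 ± 0.14 log2 (limma adjusted p = 0.0463; 0.37 and 0.257 without day 5, 0.104 with no filter). Pdk1 fell by 1.46 ± 0.31 per 20 days in exp (adjusted p = 0.0226; -0.92 and 0.0911 without day 16), against a ctl slope of -0.15 ± 0.31. The slope difference was -1.31 ± 0.41 (adjusted p = 0.265), and the day 16 difference was -0.58 ± 0.19 (adjusted p = 0.148). Its share of the 4 kinases' FPKM was 37.2% and 42.2% at exp days 0 and 5 and 16.3% to 24.9% at exp days 16 and 20, against 25.6% to 31.3% in ctl.

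Pdk4, the isoform induced by fasting and fatty acids, was near the limit of the filter. It stood at 0.421, 0.416, 0.390, 0.489, 0.495, 0.708, 0.547 and 0.357 FPKM in exp, against 1.93, 1.95, 1.85, 1.92, 1.88, 0.784, 0.799 and 1.99 in ctl. The ctl libraries of day 16 replicates 2 and 3 were the only ctl libraries under 1 FPKM. The early difference was -1.05 ± 0.14 log2 (limma adjusted p = 0.00301, and 0.0556 without day 5). Every exp library was under 1 FPKM, so Pdk4 passed the filter only through ctl. Pdk3, the most abundant kinase transcript at 20.0 to 25.2 FPKM in exp and 18.9 to 21.4 in ctl, and Pdk2, at 4.08 to 11.4 in exp and 4.09 to 8.28 in ctl, were not called early, at day 16 or over time.

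The NADPH-producing dehydrogenases of the pentose phosphate pathway were lower in exp throughout. Pgd (chromosome 4, 148524100 to 148540880, minus strand, mm9), the second NADPH-producing step, stood at 45.5, 45.0, 53.6, 36.6, 50.5, 52.6, 54.4 and 41.8 FPKM in exp, against 69.5, 62.8, 68.1, 74.9, 78.7, 67.0, 69.2 and 77.8 in ctl. The lines did not overlap, and the gap was present at day 0 (-0.60 log2) and widest at day 12 (-1.01). The early difference was -0.47 ± 0.12 (limma adjusted p = 0.038), and the call was lost without day 0, 5 or 9 (0.079, 0.187 and 0.0951) and with no filter (0.0636). At day 16 the mean was 52.5 ± 1.94 FPKM (SD) over the 3 exp replicates and 71.7 ± 6.19 over the 3 ctl replicates, lower by 0.44 ± 0.08 log2 (adjusted p = 0.0342; 0.0504 with the replicate numbers as a block). Over days 12, 16 (replicate 1) and 20 the difference was -0.84 ± 0.09 (adjusted p = 0.00379).

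G6pdx (chromosome X, 71654822 to 71674533, minus strand, mm9) stood at 20.2, 28.2, 22.9, 19.7, 24.6, 25.4, 26.8 and 20.7 FPKM in exp, against 31.5, 31.4, 32.4, 34.4, 35.4, 32.3, 32.1 and 35.6 in ctl. All exp libraries lay below all ctl libraries, with day 5 the closest. At day 16 the mean was 25.6 ± 1.16 FPKM (SD) over the 3 exp replicates and 33.3 ± 1.86 over the 3 ctl replicates, lower by 0.37 ± 0.07 log2 (limma adjusted p = 0.0353; 0.0541 with the replicate numbers as a block and 0.0599 without ctl replicate 1). Over days 12, 16 (replicate 1) and 20 the difference was -0.68 ± 0.07 (adjusted p = 0.00413), and early it was -0.42 ± 0.12 (adjusted p = 0.071). The gene is on the X chromosome, and Xist, the RNA of the inactive X, stood between 0.0709 and 0.283 FPKM in exp and between 51.1 and 92.5 in ctl. The part of X dosage in the G6pdx difference was not tested. Of the other X-linked members, Pdk3 was higher in exp in all 8 pairs, and Pgk1 at days 0, 5 and 9 only. The related gene G6pd2 stood between 14.3 and 21.9 FPKM in exp and between 22.6 and 27.7 in ctl. Whether G6pdx and G6pd2 shared reads was not tested.

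The remaining pentose phosphate genes were not called early, at day 16 or over time. Their early differences were positive, at 0.30 for Rpe, 0.25 for Taldo1, 0.19 for Tkt and 0.12 for Pgls, except that of Rpia. Rpe, ribulose phosphate epimerase, ranged from 15.6 to 22.3 FPKM in exp and from 13.8 to 16.6 in ctl, with a day 16 difference of 0.28 ± 0.08 log2 (limma adjusted p = 0.0917). Tkt (transketolase, which links the pathway back to glycolysis) ranged from 58.7 to 91.9 FPKM in exp and from 61.3 to 69.5 in ctl, and Taldo1 (transaldolase) from 42.2 to 53.4 in exp and from 40.4 to 47.7 in ctl. Rpia (ribose phosphate isomerase) ranged from 6.91 to 9.11 FPKM in exp and from 7.84 to 9.67 in ctl. Pgls, the lactonase between the 2 dehydrogenases, spread from 19.8 to 52.5 FPKM in exp and from 22.5 to 41.1 in ctl.

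Further genes of these pathways were read as lists beside the members. Of 41 related glycolysis and pyruvate genes, 26 were tested early, with a median of 0.20 log2. Of these, 4 were higher in exp (7.39% of all genes) and 1 lower (5.93%). Bpgm, which makes 2,3-bisphosphoglycerate, was higher by 0.78 ± 0.10, muscle enolase Eno3 by 0.64 ± 0.11, Tigar (a fructose 2,6-bisphosphatase) by 0.48 ± 0.13 and Pck2 (mitochondrial phosphoenolpyruvate carboxykinase) by 0.62 ± 0.16. Emb, embigin, a chaperone of monocarboxylate transporters, was lower (-1.76 ± 0.10), at 5.51 to 12.0 FPKM in exp and 11.9 to 26.3 in ctl. At day 16 Pck2 alone of 25 was called, higher by 0.64 ± 0.13 (limma adjusted p = 0.0443). Over days 12, 16 (replicate 1) and 20, 7 of 26 were higher (16.2% of all genes) and 3 lower (14.7%). Of 11 related pentose phosphate genes 7 were tested. H6pd, the endoplasmic reticulum dehydrogenase, was lower early (-0.63 ± 0.13), as 1 of 7 against 5.93% of all genes. H6pd rose over the exp time course (0.65 ± 0.17 per 20 days), as 1 of 7 against 1.36%. Pgm2l1 was lower at day 16 (-0.54 ± 0.11), as 1 of 7 against 3.01%. Over days 12, 16 (replicate 1) and 20, 2 of 7 were lower (14.7% of all genes) and none higher (16.2%). They were G6pd2 (-0.67 ± 0.07, limma adjusted p = 0.00305) and H6pd (-0.33 ± 0.07, adjusted p = 0.0232). Bpgm and Emb kept their early calls in all 11 alternatives. Leaving out day 5 ended the early calls of Eno3 (0.0987), Tigar (0.27), Pck2 (0.136) and H6pd (0.112), leaving out day 9 those of Tigar (0.103) and Pck2 (0.176), and leaving out day 0 that of Tigar (0.0606). The day 16 calls of Pck2 and Pgm2l1 were both lost without exp replicate 2 (0.129 and 0.137), exp replicate 3 (0.131 and 0.144), ctl replicate 2 (0.117 and 0.164) or ctl replicate 3 (0.133 and 0.179), and that of Pck2 without ctl replicate 1 (0.0701). The H6pd slope was lost in 11 of 23 alternatives and was 0.20 without day 0.

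Of 22 regulators of glycolysis, 21 were tested early (median -0.05 log2). In exp 3 were higher (7.39% of all genes) and 2 lower (5.93%). Mycn, a MYC family factor, was higher by 1.65 ± 0.20 (limma adjusted p = 0.00145), at 0.775 to 9.21 FPKM in exp and 0.0331 to 0.106 in ctl, and passed the filter only through exp. Myc itself was lower (-0.98 ± 0.17, adjusted p = 0.0129), standing at 19.3, 11.5, 7.64, 8.48, 23.3, 32.8, 32.6 and 16.9 FPKM in exp, against 33.2, 19.0, 23.3, 22.9, 27.5, 32.5, 31.9 and 28.0 in ctl. Tfeb was higher by 1.12 ± 0.15, the prolyl hydroxylase Egln3 by 0.46 ± 0.12, and Trp53 was lower (-0.50 ± 0.11). Leaving out day 5 or day 9 ended the calls of Egln3 (0.225 and 0.158) and Trp53 (0.178 and 0.105), leaving out day 0 that of Egln3 (0.0616), and those of Myc and Tfeb were kept without any single day. Mycn was called without day 5 or day 9 and fell under the filter without day 0. No regulator was called at day 16 (20 tested) or over time. Over days 12, 16 (replicate 1) and 20, 5 of 21 were higher (16.2% of all genes) and 1 lower (14.7%). Of 23 tested hypoxia targets outside glycolysis, 7 fell in exp over time (against 3.59% of all genes; median -0.39 log2 per 20 days; Bnip3, Fam162a, Ankrd37, Higd1a, Bnip3l, Mif and Kdm3a) and none in ctl (median -0.28). Bnip3 kept this call in all 23 alternatives, whereas without day 0 the other 6 were lost (adjusted p = 0.065 to 0.512), and Higd1a, Bnip3l, Mif and Kdm3a were lost in 15, 14, 13 and 10 of 23. No gene at all was called over time in ctl, and the list's median slope difference was -0.08, against -0.06 over all genes. The test of that difference called 2 of the 23 lower (0.0239% of all genes) and none higher (0.183%). Early, 5 of the 23 targets were higher in exp (7.39% of all genes) and 3 lower (5.93%). At day 16, 1 of 23 was higher (Rora, 3.1% of all genes) and 1 lower (Car12, 3.01%). Over days 12, 16 (replicate 1) and 20, 6 of 23 were higher (16.2%) and 6 lower (14.7%).

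The sum of 10 dividing-cell markers ranged from 892 to 1089 FPKM in exp and from 890 to 1005 in ctl. None of the 10 was called early, at day 16 or over time. In exp 8 of 10 had a negative slope (median -0.12 log2 per 20 days, against -0.09 over all genes), and in ctl 8 of 10 a positive slope (median 0.03). The slope difference was negative for 9 of 10 (median -0.15, against -0.06 over all genes). Over days 12, 16 (replicate 1) and 20, 4 of 10 were higher in exp (16.2% of all genes) and none lower (14.7%). The exp libraries with the lowest sums were day 16 replicates 2 and 3. Their part in the members' slopes was not tested.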

How the data were processed

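The samples are 16 mRNA libraries (TruSeq v2, per the labels' protocols), each with a file of FPKM per gene that the authors deposited. Per the submitters' processing notes, Bowtie2 2.2.3 and mm9 were used; no source used here gives the counter, annotation or strand setting. Symbols were found for 24416 of 24485 IDs. Line and day come from the sample titles.

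Each test used limma 3.58.1 (R 4.3.3) on log2(FPKM + 1), a scale that understates changes of low genes. Genes needed a mean of 1 FPKM or more over the libraries fitted. The variance prior was robust and followed a trend in mean level, tests were two-sided, and Benjamini-Hochberg adjustment ran over all genes tested with a threshold of 0.05. A slope is the change per 20 days; the slopes of both lines share a fit over all 16 libraries, and the slope difference adds day as a shared factor. The scripts were tested on simulated data.

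Values were whole multiples of a read, within 0.02 of a read, for 18964 of the 18966 genes with reads in at least 2 libraries. On these reads limma voom called 811 genes at day 16, against 765 on FPKM. The main fits did not pair the day 16 libraries by number. Replicate numbers entered as a block only as an alternative, whose values are given where they change a call. Exp and ctl libraries of the same number deviated together from their line means (correlations 0.381, 0.272 and 0.333). Unmatched numbers 2 and 3 also deviated together (0.209 for exp 2 with ctl 3, and 0.398 for exp 3 with ctl 2), so the correlations separate replicate 1 from the others but not 2 from 3. Day 16 replicates 2 and 3 differed beyond sampling noise and were not merged.

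Every member past the threshold is named, and others to complete a role. The members, lists and tests were chosen with earlier results of these data known. Gene positions are mm9 (GENCODE vM1), and promoter windows are from RefSeq on GRCm38.p6.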

Additional observations from a re-analysis of the deposited data

Results flagged for a closer look

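None of the 35 members met a rule for a closer look. Outside the members, 2 genes of the hypoxia list changed differently over time in the lines, by a test of the slope difference (limma). Bnip3, a mitophagy receptor, stood at 51.0, 34.2, 21.98, 20.3, 13.7, 18.2, 17.7 and 15.0 FPKM in exp, against 28.1, 24.0, 21.9, 20.9, 19.3, 22.9, 20.5 and 19.9 in ctl, with a slope difference of -1.31 ± 0.21 log2 per 20 days (adjusted p = 0.0373). The mitochondrial protein gene Fam162a stood at 79.9, 53.1, 39.4, 35.5, 28.0, 27.9, 27.5 and 30.8 FPKM in exp, against 44.4, 35.4, 36.3, 40.4, 34.6, 33.3, 32.2 and 36.6 in ctl, with a slope difference of -1.23 ± 0.16 (adjusted p = 0.0195). Both were higher in exp at day 0 and lower in exp from day 12 on. The call of Bnip3 was lost in 14 of 24 alternatives, among them each fit without 1 day (adjusted p = 0.0591 to 0.479), and each fit without 1 replicate other than exp replicate 1 (0.0531 to 0.098). That of Fam162a was lost in 7, among them without day 0 (0.24), day 5 (0.0624), day 16 (0.242) or exp replicate 2 (0.0537). Pdk1, whose slope difference of -1.31 was of the same size, did not pass (adjusted p = 0.265).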

How the results depend on the processing

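No called result reversed its direction. Among members not called over the 3 day 16 replicates, the difference of Aldoc was 0.06, against -0.71 with replicates 2 and 3 only and 1.80 over days 12, 16 (replicate 1) and 20, and that of Slc16a3 was -0.61, against -1.33 and 0.67. At day 16, 765 genes were called, against 493 with a mean of at least 5 FPKM, 4326 with replicates 2 and 3 only, 3875 over days 12, 16 (replicate 1) and 20, and 197 to 1599 when 1 replicate was left out; members called higher numbered 0, against 5 with replicates 2 and 3 only, 5 over days 12, 16 (replicate 1) and 20, and 0 to 2 without 1 replicate, and members called lower 3, against 14, 11 and 0 to 6. The slope difference called 26 genes, against 49 after quantile normalization, 1, 8, 14, 12 and 0 without days 0, 5, 9, 12 and 16, 2 without day 16 replicates 2 and 3, 0 with those replicates averaged, and 2 to 35 without 1 replicate. In exp the slope called 622 genes, against 1036 with a replicate block, 9, 1381, 371 and 72 without days 0, 5, 12 and 16, 102 with day 16 averaged and 249 to 466 without 1 replicate; the 4 members that fell became 0 without day 0, without day 16 and with day 16 averaged. In ctl it called 0 genes, against 1 with a replicate block, 1 without day 16 replicates 2 and 3, 1 with day 16 averaged and 0 to 2 without 1 replicate. Early, 1676 genes were called, against 1092 with a mean of at least 5 FPKM, 739 without day 5 and 1029 without day 9; the 4 members called higher became 2 with no filter, 2 with a mean of at least 5 FPKM and 1 without day 5, and the 4 called lower became 2 with no filter, 1 without day 5 and 2 without day 9. The causes were not tested. The replicate block ended the day 16 calls of Pgd and G6pdx, added Pfkl there and Ldha to the falling genes in exp, and changed no other member's call. Limma voom on recovered reads added Hk2, Tpi1 and G6pdx to the early calls. Depth was no limit for most members, since the lowest count was 26 reads; the 1 library per line at most days is.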
